A study of Arabidopsis thaliana with 30 samples.

Results

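AT4G33467 and AT4G33470, the gene of histone deacetylase 14 (HDA14), are adjacent on chromosome 4 of Arabidopsis thaliana and are 2 of the 33602 genes in the deposited tables. They were chosen by position and by their measured change with abscisic acid (ABA) in these libraries, so the ABA comparisons in root and shoot are given as descriptions, without a test. RNA was sequenced from dark-grown seedlings, 5 days old, that had spent 1 day in light and 4 days in darkness. The roots and shoots of each genotype and treatment gave 10 groups of 3 libraries. The groups were aba2-3 given 10 µM IAA (indole-3-acetic acid, an auxin), aba2-3 given the ethanol solvent (mock), Col-O given 10 µM ABA, Col-O given IAA and Col-O given mock, each for 2 h and each as root and as shoot. Col-O is the wild type as the labels spell it. The line aba2-3 carries a mutant allele of ABA2, a dehydrogenase of ABA synthesis, and was given no ABA. The question was whether the level of HDA14 follows that of its strongly ABA-induced neighbour in each organ.

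ABA is the hormone that plants make under water shortage. Its receptors inhibit protein phosphatases such as ABI1 and ABI2, which frees SnRK2 kinases to activate bZIP transcription factors of the ABF family. These factors bind promoter elements with an ACGTG core, the ABA-responsive elements. HDA14 belongs to the RPD3/HDA1 family, enzymes that remove acetyl groups from lysines of histones and other proteins, and it has been described as a deacetylase of chloroplast proteins. AT4G33467 carries no gene symbol in RefSeq, where it is annotated as protein-coding.

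Both genes lie on the minus strand of chromosome 4. In the deposited annotation HDA14 runs from 16102595 to 16105493, with 9 exons of 1505 bases in all, and AT4G33467 from 16101464 to 16102196, with 2 exons of 648 bases. Read in the direction of transcription, HDA14 comes first and AT4G33467 starts 398 bases beyond its 3′ end (374 bases in RefSeq, assembly TAIR10.1). On its other side HDA14 starts 117 bases from the 3′ end of AT4G33480 (19 bases in RefSeq). The deposited exons of both genes share no base with those of another gene. Of the 50-base words within single exons, 0 of 550 in AT4G33467 and 0 of 1064 in HDA14 occur elsewhere in the nuclear chromosomes. Plastid and mitochondrial sequences were not searched. In RefSeq the plus-strand gene SCRL22 overlaps AT4G33467 by 253 exon bases. The sources used here do not give whether reads were counted by strand, so reads there could not be assigned to one strand or the other.

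The 250 bases before the RefSeq start of AT4G33467 lie between the pair, at chr4:16102221-16102470 of TAIR10.1 on the minus strand. They are shown because the interval holds the ACGTG core of ABA-responsive elements. Capitals mark CACGTG, which holds the core on both strands, and CACGT, the reverse complement of the core.

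AT4G33467: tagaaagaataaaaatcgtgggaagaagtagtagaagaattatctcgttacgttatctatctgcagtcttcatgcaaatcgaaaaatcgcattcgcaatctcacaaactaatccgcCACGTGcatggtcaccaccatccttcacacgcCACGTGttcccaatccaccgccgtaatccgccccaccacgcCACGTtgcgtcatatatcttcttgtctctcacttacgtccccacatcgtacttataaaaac

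ACGTG was searched on both strands and matched 5 times, at 3 separate places whose first bases lie 134, 102 and 61 bases before the start. The places at 134 and 102 bases are the palindrome CACGTG, where the core matches on both strands. Of 32833 upstream windows of the same length, 21.6% held ACGTG at least once and 5.83% held CACGTG, and 0.771% held CACGTG more than once. The drought-responsive core CCGAC, found in 12.2% of windows, was not among these letters. The window before HDA14 held none of the 3 motifs, and it is not shown because it runs into the transcript of AT4G33480.

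Total counts per library lay between 3871038 and 99263091. The summed level of 16 shoot marker genes (chlorophyll-binding proteins, photosystem subunits and Rubisco small subunits) was 247 to 8260 CPM (read counts scaled to a common library total) in the 15 root libraries and 28100 to 108000 CPM in the 15 shoot libraries, and 0 of the 16 had a higher median in root. Of 12 root markers 9 had the higher median in root. Their sum was 3160 to 8520 CPM in roots and 5900 to 11500 CPM in shoots, or 1170 to 1750 CPM and 339 to 617 CPM without PYK10, a β-glucosidase gene of the hypocotyl as well as the root. In 5 root libraries the shoot markers exceeded 5% of their median shoot level: Col-O ABA root 2 (11.7%) and 3 (7.15%), Col-O IAA root 2 (7.94%), Col-O mock root 3 (6.81%) and aba2-3 mock root 1 (6.25%). In the other 10 they were at 2.09% or less. Among the shoots, Col-O mock shoot 1 stood lowest, at 39.8%. ABA2 transcript did not separate the genotypes, with 26 ± 4.22 CPM in aba2-3 and 22.6 ± 2.21 CPM in Col-O mock roots (SD, n = 3 each, edgeR adjusted p 0.63). A whole-gene count does not show a change within the transcript.

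AT4G33467 was the more strongly ABA-induced of the pair in both organs. In roots it stood at 383, 378 and 535 CPM after ABA, against 3.25, 7.34 and 2.16 CPM after mock. In shoots it stood at 139, 145 and 175 CPM after ABA, against 0.803, 0.872 and 1.05 CPM after mock. Every ABA library lay far above every mock library of its organ, as the plot of levels by library shows. The log2 fold change was 6.65 (SE 0.53) in roots and 7.40 (SE 0.56) in shoots. CPM here are scaled by library composition (TMM factors), and fold changes are from 1 edgeR fit of all 30 libraries. The difference between the responses, root minus shoot, was −0.75 (SE 0.63). Without Col-O mock root 2, the mock root library with the highest level, it was −0.09. The level after ABA was higher in root than in shoot, at 432 ± 89.4 CPM in roots and 153 ± 19.1 CPM in shoots (SD, n = 3 each), and the libraries did not overlap. In bulk tissue, fewer cells that contain a transcript and less of it per cell cannot be told apart.

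HDA14, whose level without ABA was low in roots and higher in shoots, stood higher after ABA in roots, while its shoot level lay within the range of the mock shoots. In roots it stood at 27.8, 45.0 and 45.5 CPM after ABA, against 2.48, 2.28 and 1.24 CPM after mock. In shoots it stood at 21.3, 20.2 and 22.7 CPM after ABA, against 7.95, 17.4 and 23.3 CPM after mock. The root groups did not overlap, and the shoot groups did. The log2 fold change was 4.28 (SE 0.33, or 19.4-fold) in roots and 0.40 (SE 0.28, or 1.32-fold) in shoots, a difference of 3.88 (SE 0.42). Of all genes tested, 15.7% were called in the ABA comparison in roots and 9.65% in shoots.

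The shoot value of HDA14 turned on the mock libraries. It was 0.11 without Col-O mock shoot 1, which had the lowest HDA14 level of the shoots and the lowest shoot marker level, and 0.77 without Col-O mock shoot 3. In roots, 2 of the ABA libraries and 1 of the mock libraries were among those with more than 5% of the shoot marker level. Without all such root libraries the log2 fold change was 3.58, and the root library Col-O ABA root 1, with shoot markers at 0.729%, still held 27.8 CPM of HDA14. Over all alternatives the difference between the responses of HDA14, root minus shoot, ran from 3.13 to 4.23.

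**Figure D1:**
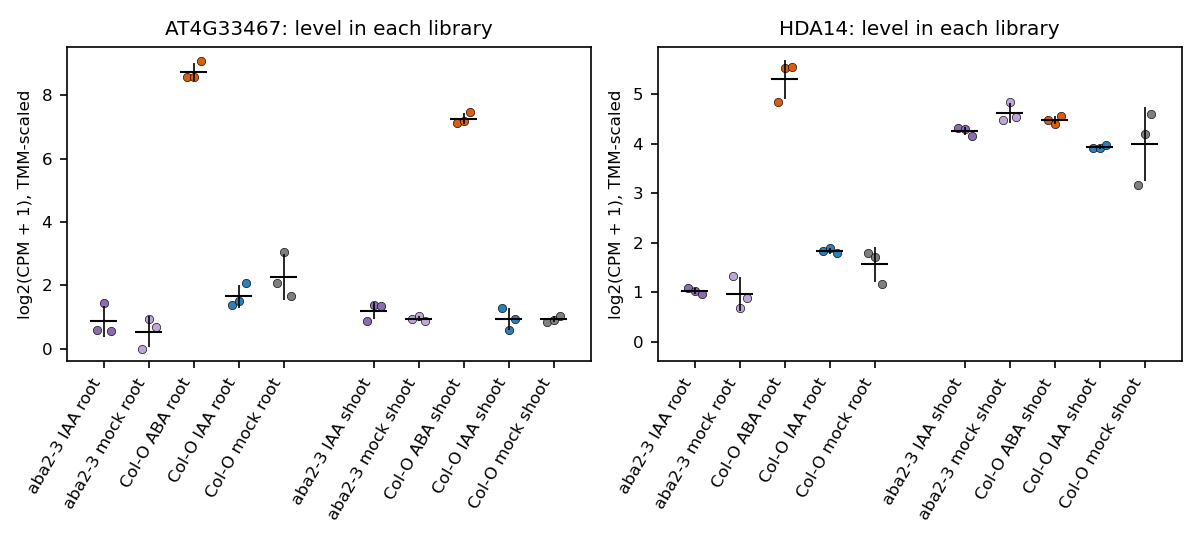
Level of AT4G33467 (left) and HDA14 (right) in each library, as log2(CPM + 1) on TMM-scaled CPM, by group. Points are libraries, horizontal bars the group means and vertical bars the SD of 3 libraries. AT4G33467 stands apart after ABA in root and shoot. HDA14 is low in all root groups but Col-O ABA root, and its Col-O ABA shoots lie within the range of the Col-O mock shoots.

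Per kilobase of exon (TMM-scaled RPKM), AT4G33467 was the more abundant of the pair wherever ABA was given. It reached 666 ± 138 RPKM in ABA roots, where HDA14 reached 26.2 ± 6.71 RPKM, and 236 ± 29.5 RPKM in ABA shoots, where HDA14 reached 14.2 ± 0.841 RPKM (SD, n = 3 each). It was also the more abundant in Col-O roots without ABA, at 3.41 ± 1.34 RPKM after IAA and 6.56 ± 4.21 RPKM after mock, where HDA14 stood at 1.7 ± 0.0895 and 1.33 ± 0.445 RPKM. In mock shoots the order was the other way round, with AT4G33467 at 1.4 ± 0.199 RPKM and HDA14 at 10.8 ± 5.16 RPKM. In ABA roots the level of HDA14 was 3.12% to 5.14% of that of its neighbour, and in ABA shoots 5.6% to 6.6%. Counted as the increase over the mock mean, HDA14 gained 17.1, 28.6 and 28.9 RPKM in the ABA root libraries, while AT4G33467 gained 584, 576 and 819 RPKM. In the ABA shoot libraries HDA14 gained 3.35, 2.64 and 4.31 RPKM and AT4G33467 gained 213, 223 and 268 RPKM. The gain of HDA14 was thus 2.93% to 4.96% of its neighbour's gain in roots and 1.18% to 1.61% in shoots. Its shoot gain was smaller than the SD of the mock shoots, 5.16 RPKM. Col-O mock shoot 3, at 15.5 RPKM, lay above every ABA shoot, so the shoot percentages do not measure a separate increase. Within the ABA roots, libraries 1 and 2 had nearly the same AT4G33467 level, 383 and 378 CPM, with HDA14 at 27.8 and 45.0 CPM. Their shoot markers stood at 0.729% and 11.7% of the median shoot level. The part of shoot tissue in this difference was not tested.

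The order of the group means differed between the genes. For AT4G33467, Col-O ABA root and then Col-O ABA shoot led without overlap, followed by Col-O mock root at 4.25 ± 2.73 CPM and Col-O IAA root at 2.21 ± 0.868 CPM. From Col-O mock root downwards each group overlapped the next, and the lowest was aba2-3 mock root at 0.506 ± 0.461 CPM (SD, n = 3 each). For HDA14, Col-O ABA root at 39.4 ± 10.1 CPM overlapped aba2-3 mock shoot at 23.7 ± 3.53 CPM. The other shoot groups followed, down to Col-O IAA shoot at 14.2 ± 0.373 CPM. Among these, Col-O ABA shoot at 21.4 ± 1.27 CPM did not overlap the next group, aba2-3 IAA shoot at 18.1 ± 1.07 CPM. Below all shoot groups, separated by a gap, came the root groups without ABA. They ran from Col-O IAA root at 2.56 ± 0.135 CPM to aba2-3 mock root at 0.98 ± 0.482 CPM.

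**Figure D2:**
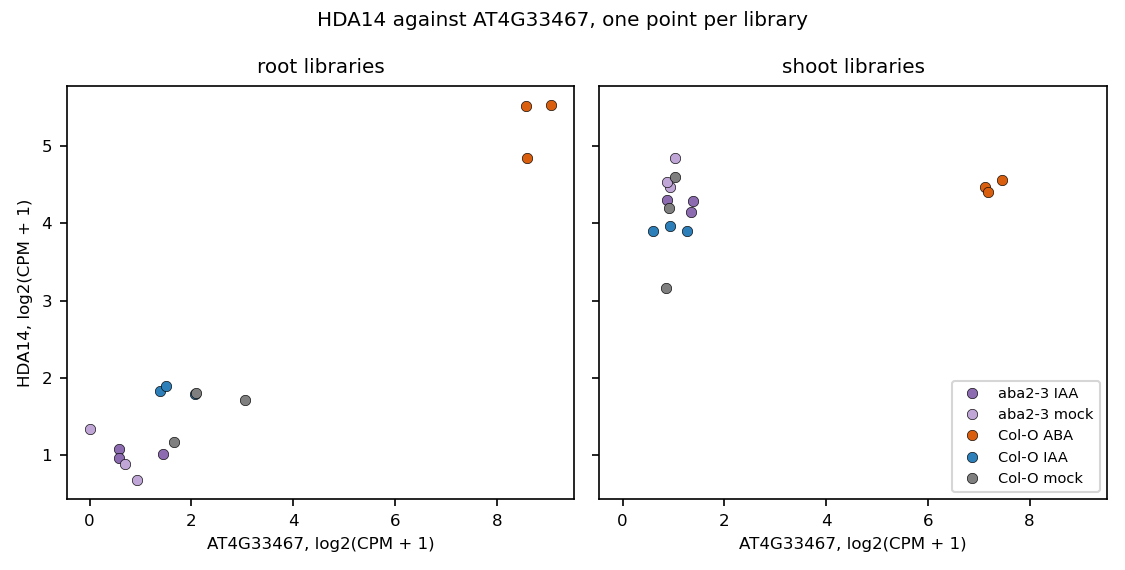
HDA14 against AT4G33467 in root libraries (left) and shoot libraries (right), both as log2(CPM + 1) on TMM-scaled CPM, 1 point per library. The 3 Col-O ABA roots lie at the top right, high for both genes. The 3 Col-O ABA shoots lie far to the right, at an HDA14 level within the range of the Col-O mock shoots and above the IAA shoots.

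Across the libraries that received no ABA, 12 for each organ, the relation of the genes was examined on log2(CPM + 1), with permutation tests adjusted over 4 relations. The permutations shuffled the libraries of an organ without regard to their groups, so differences between groups enter these p-values. In roots Pearson's r was 0.60 (permutation p 0.038, adjusted 0.15) and Spearman's rho 0.52 (permutation p 0.087, adjusted 0.17), so neither held after adjustment. Without the 2 libraries farthest from the median AT4G33467 level, Col-O mock root 2 and aba2-3 mock root 1, r was 0.72 (permutation p 0.023, n = 10). On deviations from the group means, r in roots was −0.03. In shoots r was 0.17 (permutation p 0.60, adjusted 0.60) and rho 0.18 (permutation p 0.57, adjusted 0.60), and r was 0.22 without the farthest 2 (permutation p 0.53, n = 10). Each gene was also set against the shoot marker sum over the same libraries, chosen after the data were seen and adjusted over 8 relations. For HDA14 in shoots r was 0.88 (permutation p 0.00063, adjusted 0.005) and rho 0.73 (permutation p 0.0089, adjusted 0.036). It rests on Col-O mock shoot 1 and aba2-3 mock shoot 2, without which r was 0.49 (permutation p 0.15). In roots r for HDA14 was −0.07 (permutation p 0.83) and rho −0.09 (permutation p 0.78). For AT4G33467 r was −0.22 in roots (permutation p 0.50) and 0.01 in shoots (permutation p 0.98), with rho of −0.15 and −0.22 (permutation p 0.65 and 0.48). The permutations for the shoot markers also ignored the groups, and these relations were not examined on deviations from the group means. The part of shoot marker content in the relation between the genes was not tested.

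The genes that flank the pair were set beside it. Of the 5 listed genes on each side 9 passed the filter on low counts, all but SCRL22. In roots 0 of the 9 were called by edgeR, with 2 at an unadjusted p under 0.05 (ABCI10 and DHS2), and DESeq2 called 1, where 15.7% of all genes were called, so this count does not set them apart. Their log2 fold changes ran from −0.39 to 0.53, with a median of 0.37 where that of all genes tested was −0.03. AT4G33480, on the far side of HDA14, had 11.6 ± 2.74 CPM in ABA roots and 8.98 ± 0.917 CPM in mock roots (SD, n = 3 each). In shoots 2 of the 9 were called, where 9.65% of all genes were, with a list median of 0.04 against −0.07 for all genes tested. ABCI10, an ATP-binding cassette protein gene 1930 bases beyond the start of AT4G33467, rose in shoots by 0.79 (SE 0.19, edgeR adjusted p 0.0062), and AT4G33440 fell by 0.88 (SE 0.25, edgeR adjusted p 0.026). In shoots 1 of the 9 was called without Col-O ABA shoot 1 or 3 or Col-O mock shoot 2 or 3, and without Col-O ABA root 1 the root comparison called 3 of the 9.

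**Figure D3:**
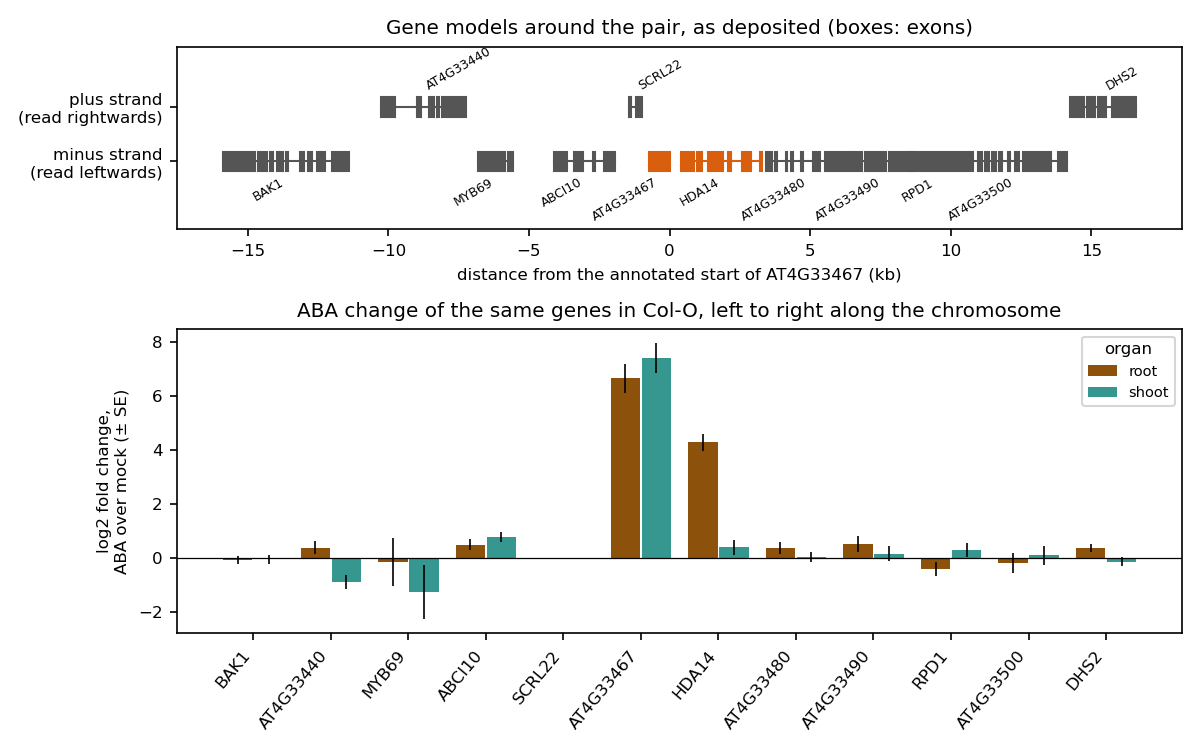
Deposited gene models around the pair by distance in kb from the annotated start of AT4G33467 (top, the pair in orange) and the log2 fold change of the same genes in ABA over mock, root and shoot of Col-O, with SE (bottom; SCRL22 was not tested). The bars of AT4G33467 in both organs and of HDA14 in root exceed 4, and those of the flanking genes lie between −1.26 and 0.79.

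Other histone deacetylases were next examined with ABA. Of 17 listed genes of the RPD3/HDA1, HD-tuin and sirtuin families 14 passed the filter, and HDA7, HDA10 and HDA17 did not. In ABA roots 0 of the 14 were called by edgeR, 1 had an unadjusted p under 0.05 (HDA19, at 0.24, SE 0.11) and DESeq2 called 1, where edgeR called 15.7% of all genes. Their median log2 fold change was 0.11. The largest value, 2.46 (SE 1.66), was that of HDA18, which averaged 0.269 CPM in ABA roots and 0.0379 CPM in mock roots. In ABA shoots, where edgeR called 9.65% of all genes, 0 were called by edgeR or DESeq2 and the median was −0.23, while 5 had an unadjusted p under 0.05 (HDA5, HDA6, HDA15, HDA19 and HDT3, each between −0.30 and −0.39). Scaling by total counts alone called 3 in shoots, a scaling that moved the median of all genes from −0.07 to −0.21 there.

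The 12 textbook ABA-induced genes, a list drawn up with earlier results of these data known, showed the hormone response in both organs. All 12 were called higher in roots (median log2 fold change 3.54) and all 12 in shoots (median 3.49), where 8.31% and 4.98% of all genes tested were called higher. With total counts in place of TMM, 1211 of 4289 root calls were higher, against 1841 of 3480, and 820 of 2589 shoot calls, against 1103 of 2137. GolS2, a galactinol synthase gene, rose most, by 7.60 in roots (SE 0.39, edgeR adjusted p 5.5e-13) and 7.06 in shoots (SE 0.38, edgeR adjusted p 1.6e-12). HAI1, a PP2C phosphatase gene, rose by 6.01 and 5.19, and RAB18, a dehydrin gene, by 5.18 and 4.21. KIN1 rose by 4.90 and 3.88, and RD29B by 4.41 and 4.43. The pair was chosen by its ABA change, so its place beside these genes is a description without a test. AT4G33467 stood at 6.65 (SE 0.53) in roots, between HAI1 and GolS2. In shoots it stood at 7.40 (SE 0.56), close to GolS2. Between organs 1 of the 12 differed in its response, ABF3, the bZIP factor gene, by 1.09 more in roots, where 1.72% of all genes tested were called. This count was 0 without Col-O ABA root 3, without Col-O mock root 1 or without the root libraries over 5% of the shoot marker level, and 2 without Col-O mock shoot 1.

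Genes with the pattern most like each member were ranked by Pearson's r of log2(CPM + 1) over the means of the 10 groups. Closest to AT4G33467 were HSFA6B, a heat shock transcription factor gene (r = 0.997), AT1G70640 (0.993), AT4G38060 (0.990), MAPKKK18, a protein kinase gene (0.989), and AT5G50360 (0.988). Levels of the genes ranked are given here as means of log2(CPM + 1) turned back to CPM. HSFA6B stood at 729 CPM in ABA roots and 17.3 CPM in mock roots, and 249 CPM in ABA shoots and 6.38 CPM in mock shoots. MAPKKK18 stood at 445 CPM in ABA roots and 4.19 CPM in mock roots, and 139 CPM in ABA shoots and 4.0 CPM in mock shoots. In mock shoots the arithmetic mean of AT4G33467 was 0.909 CPM. Closest to HDA14 were AT3G44220 (0.971), AT5G62140 (0.967), COL4 (0.967), AT1G02660 (0.965) and COL5 (0.960), of which COL4 and COL5 are CONSTANS-like zinc finger genes. COL4 had 355 CPM in ABA roots and 59.8 CPM in mock roots, and 485 CPM in ABA shoots and 344 CPM in mock shoots. Unlike the mean of HDA14, its mean stayed lower in root than in shoot with ABA. The same held narrowly for AT5G62140 (18.4 and 19.0 CPM) and AT1G02660 (133 and 139 CPM). COL5 was level with ABA, at 431 and 430 CPM. AT3G44220 turned in the direction of HDA14, but narrowly, with 8.11 CPM in ABA roots and 7.62 CPM in ABA shoots, against 4.33 and 6.95 CPM after mock. The r of the members with each other was 0.52. Of 22155 genes ranked, 1749 were more like AT4G33467 than HDA14 was, and 5958 more like HDA14 than AT4G33467 was. The group means include both organs and the Col-O ABA and mock groups that chose the pair, so r and ranking are descriptions. Over all 30 libraries 3 of the 5 genes named for AT4G33467 and 4 of the 5 named for HDA14 remained among the closest 5. For HDA14 the gene that did not remain was AT3G44220, at r = 0.818 and rank 172.

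Whether the pair is lower where ABA synthesis is impaired was tested in aba2-3, which the choice of the pair did not use, although the mock comparisons share the Col-O mock libraries with the ABA comparisons. AT4G33467 fell in aba2-3 mock roots. It stood at 0, 0.902 and 0.616 CPM in aba2-3, against 3.25, 7.34 and 2.16 CPM in Col-O. The groups did not overlap, and the log2 fold change was −3.01 (SE 0.54, edgeR adjusted p 0.0014), in a comparison that called 7.19% of all genes tested. The library at 0 counts, aba2-3 mock root 1, allows a level of up to 0.13 CPM (3 counts, counting error only). The call was kept in 6 of 6 fits that left out 1 library of these groups, and was lost when only the compared groups were fitted (edgeR adjusted p 0.088).

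HDA14 in the same roots stood at 1.52, 0.59 and 0.833 CPM in aba2-3, against 2.48, 2.28 and 1.24 CPM in Col-O. The groups overlapped through aba2-3 mock root 1 and Col-O mock root 3, both among the roots with over 5% of the shoot marker level. The log2 fold change of −1.07 (SE 0.34) did not pass, at an edgeR adjusted p of 0.059. Without the root libraries over that level it was −1.73 (edgeR adjusted p 0.0087). It also passed without aba2-3 mock root 1 alone (−1.50, 0.017), without Col-O mock root 3 alone (−1.30, 0.031), with total counts and with DESeq2, so the comparison lay on either side of the threshold. Over all alternatives the adjusted p ran from 0.0087 to 0.27.

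After IAA, with no libraries shared with the ABA comparisons, HDA14 stood at 1.11, 1.02 and 0.937 CPM in aba2-3 roots, against 2.54, 2.71 and 2.44 CPM in Col-O roots. These groups did not overlap. The log2 fold change was −1.32 (SE 0.34, edgeR adjusted p 0.044), in a comparison that called 1.72% of genes. The call was lost in 6 of 6 fits that left out 1 library (edgeR adjusted p 0.081 to 0.14) and when the compared groups were fitted alone (0.16). These libraries hold 12 to 84 counts of HDA14. AT4G33467 stood at 0.494, 1.70 and 0.487 CPM in aba2-3 IAA roots, against 1.60, 1.82 and 3.20 CPM in Col-O IAA roots, and its log2 fold change of −1.55 (SE 0.55) did not pass (edgeR adjusted p 0.18).

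In shoots neither gene was called between the genotypes, where 2.63% of genes were called in mock shoots and 1.16% in IAA shoots. AT4G33467 averaged 0.929 ± 0.109 CPM in aba2-3 and 0.909 ± 0.129 CPM in Col-O mock shoots (log2 fold change 0.04, SE 0.54, edgeR adjusted p 0.99). HDA14 averaged 23.7 ± 3.53 CPM in aba2-3 and 16.2 ± 7.76 CPM in Col-O mock shoots (0.55, SE 0.28, edgeR adjusted p 0.38; SD, n = 3 each). In IAA shoots the values were 0.44 (SE 0.63) for AT4G33467 and 0.35 (SE 0.29) for HDA14, with edgeR adjusted p of 0.88 and 0.72. The difference of the genotype effect between organs, root minus shoot, was tested after these results were seen. In mock libraries it was −3.05 for AT4G33467 (SE 0.77, edgeR adjusted p 0.042) and −1.61 for HDA14 (SE 0.44, edgeR adjusted p 0.064), where 1.54% of genes were called. The first was lost in 9 of 12 fits that left out 1 library (adjusted p 0.024 to 0.16), so it too lay near the threshold. In IAA libraries it was −1.98 (SE 0.84) and −1.67 (SE 0.44), with adjusted p of 0.46 and 0.15, where 0.181% of genes were called.

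**Figure D4:**
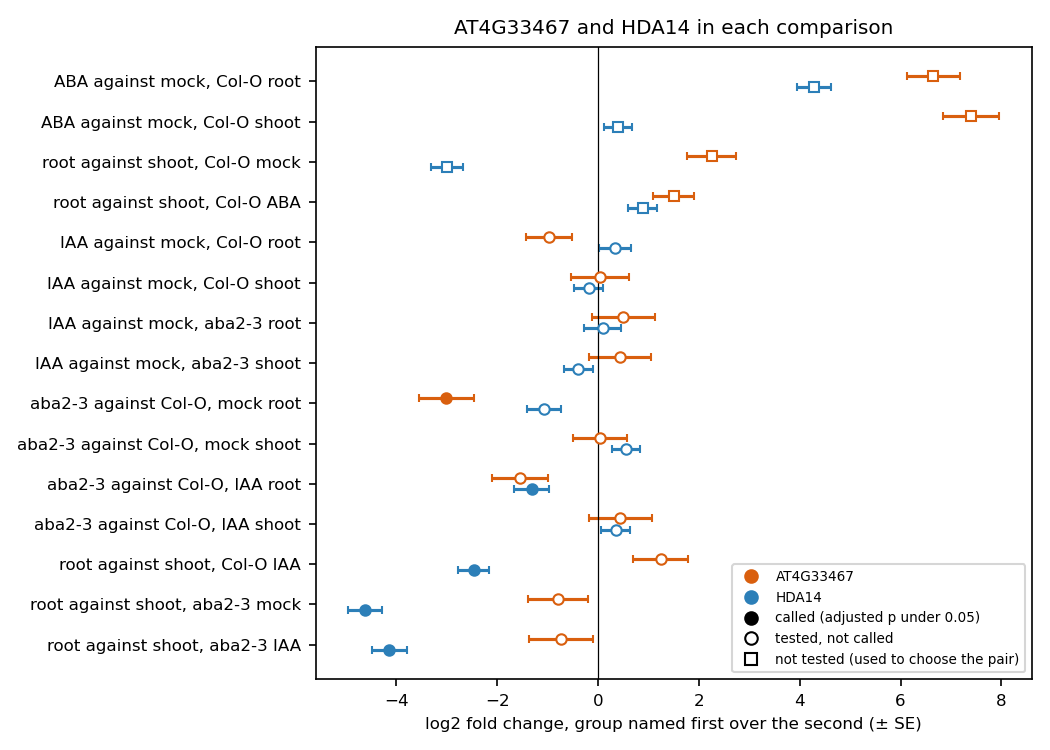
Log2 fold change of AT4G33467 (orange) and HDA14 (blue) in each comparison, the group named first over the second, with SE. Squares mark comparisons that chose the pair and were not tested, filled circles an adjusted p under 0.05 and open circles tests that did not pass. HDA14 lies left of 0 in every root against shoot comparison without ABA, and both genes lie left of 0 in aba2-3 against Col-O in roots, with mock and with IAA.

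Among the listed ABA-induced genes, 4 of 12 were called lower in aba2-3 mock roots (GolS2, HB7, ABI2 and RAB18), where 3.92% of all genes were, and 0 higher. In mock shoots 5 of 12 were called lower (RAB18, HAI1, GolS2, ABI2 and ABF3), where 1.78% of all genes were. The root count was 2 without aba2-3 mock root 2 or 3, and the shoot count was 2 without aba2-3 mock shoot 3 or Col-O mock shoot 1 and 3 without aba2-3 mock shoot 2. GolS2 had 0.61 ± 0.107 CPM in aba2-3 and 4.37 ± 2.42 CPM in Col-O mock roots (SD, n = 3 each), a log2 fold change of −2.83 (SE 0.37, edgeR adjusted p 7.7e-05), close to that of AT4G33467. Of the genes flanking the pair 1 of 9 was called in mock roots, DHS2, which was higher in aba2-3 by 0.54 (SE 0.16, edgeR adjusted p 0.041). In each of the 6 fits that left out 1 library of these groups, and with total counts or no filter, 0 of the flanking genes were called. Of the other histone deacetylases 0 of 14 were called in mock roots by edgeR, 3 had an unadjusted p under 0.05 (HDA8, HDA15 and HDT1, each higher in aba2-3) and DESeq2 called 1, as did edgeR without aba2-3 mock root 1. In mock shoots 3 of 14 were called higher in aba2-3, HDT1, HDT2 and HDT3, genes of plant-specific HD-tuin deacetylases, by 0.84, 0.54 and 0.75, where 0.853% of all genes were. This count rested on single libraries: it was 0 without aba2-3 mock shoot 3, 1 without aba2-3 mock shoot 2 or Col-O mock shoot 1, 2 without Col-O mock shoot 2 and 4 without aba2-3 mock shoot 1.

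IAA left neither gene past the threshold in any of the 4 comparisons with mock, so 0 of 8 tests passed with edgeR or DESeq2, and 1 had an unadjusted p under 0.05. These comparisons called 11.8% and 1.92% of all genes tested in aba2-3 root and shoot, and 5.57% and 2.22% in Col-O root and shoot. The 1 was AT4G33467 in Col-O roots, at 1.60, 1.82 and 3.20 CPM after IAA, against 3.25, 7.34 and 2.16 CPM after mock (log2 fold change −0.97, SE 0.46, edgeR adjusted p 0.25). The groups overlapped. In aba2-3 roots the same gene differed by 0.50 (SE 0.63) and HDA14 by 0.09 (SE 0.37), and HDA14 in Col-O roots by 0.34 (SE 0.32). In shoots the values were 0.43 (SE 0.61) and 0.04 (SE 0.57) for AT4G33467 in aba2-3 and Col-O, and −0.39 (SE 0.28) and −0.19 (SE 0.28) for HDA14. The difference of the IAA response between the genotypes, aba2-3 minus Col-O, was also tested after seeing these values and did not pass for either gene in root or shoot (edgeR adjusted p 0.40 to 1.00). These tests called 1.32% of all genes in roots and 0.00451% in shoots.

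HDA14 was lower in roots than in shoots in the 3 groups without ABA that were tested. In aba2-3 mock libraries it stood at 1.52, 0.59 and 0.833 CPM in roots, against 21.2, 27.8 and 22.3 CPM in shoots (log2 fold change −4.62, SE 0.34, edgeR adjusted p 2.6e-10). In aba2-3 IAA libraries it stood at 1.11, 1.02 and 0.937 CPM in roots, against 18.8, 18.6 and 16.8 CPM in shoots (−4.14, SE 0.34, edgeR adjusted p 8.5e-10). In Col-O IAA libraries it stood at 2.54, 2.71 and 2.44 CPM in roots, against 14, 14 and 14.7 CPM in shoots (−2.47, SE 0.31, edgeR adjusted p 2.6e-07). Roots and shoots did not overlap in these 3 comparisons, which called 27.7%, 25.5% and 27.8% of all genes lower in root, and the calls held in every alternative run. AT4G33467 was not called between organs: root against shoot it differed by −0.80 (SE 0.60), −0.74 (SE 0.64) and 1.24 (SE 0.54) in the same order, with edgeR adjusted p of 0.27, 0.34 and 0.053, where 53.9%, 54.5% and 56.1% of all genes were called in either direction. With ABA the organ order of HDA14 was turned, at 39.4 ± 10.1 CPM in roots and 21.4 ± 1.27 CPM in shoots (SD, n = 3 each), a log2 fold change of 0.88 (SE 0.28) that was 0.32 without the root libraries over 5% of the shoot marker level.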

How the data were processed

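RNA-seq of 30 libraries was analysed, grouped by title, with replicates numbered there and nothing that marks them as separate cultures, so p-values measure the spread between these samples. Per the labels' protocols, RNA was isolated with the RNeasy kit and cDNA made with SMARTer, and all libraries carry 1 run identifier. The submitters' processing notes name STAR, Subread, featureCounts, edgeR, limma and TAIR10, and the strand setting is not given in the sources used here. The deposited count is a whole number of reads per gene. The deposited CPM is that count scaled to a common total of summed counts in 30 of 30 files, and the deposited RPKM equals that CPM per kilobase of exon in 30 of 30. Intron ends of the deposited annotation read GT-AG in TAIR10.1 for 98.9% of 81547 introns, so its coordinates were used with the RefSeq sequence of that assembly.

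From the counts, edgeR 4.0.16 (R 4.3.3, limma 3.58.1) fitted 1 mean per group over all 30 libraries, with TMM normalization and filterByExpr, which left 22156 genes, both members among them. Calls rest on two-sided quasi-likelihood F tests with Benjamini-Hochberg adjustment within a comparison, under 0.05, and no adjustment was made across comparisons. SEs were derived by dividing each log2 fold change, in absolute value, by the root of F. CPM and RPKM in the text are on TMM-scaled library sizes. Replicates differed beyond sampling noise (chi-square per degree of freedom 6.4 to 181 over 30 pairs). The members and lists were chosen with earlier results of these data known. Genes named were the members, list genes called with ABA (at most 5 a list by fold change) and the 5 genes most like each member. Others named, the 4 interaction tests, the correlations with shoot markers, the alternatives for the ABA-induced list and the root marker sum without PYK10 were chosen after the data were seen. Correlations used 100000 permutations and a pseudocount of 1. Scripts were tested on simulated counts. The recovery of changed genes fell short of the criterion first set, which was replaced after that value was seen, with the fitting code unchanged, so true changes can be among those not called. False calls were 3.82% of the simulated calls for genotype in mock roots, and 6.8% for the difference of that effect between organs.

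Alternatives were RLE size factors, total counts, no filter, a mean count of at least 20, a replicate block, the compared groups alone, root libraries above 5% of the shoot marker level left out, DESeq2 1.42.0, each replicate left out, and pseudocounts of 0.1 and 5. The replicate numbers recur in every group. Deviations of same-numbered libraries correlated above 0.1 for all 3 numbers only between Col-O IAA shoot and Col-O mock shoot (0.45, 0.18 and 0.19). Between Col-O IAA root and Col-O mock root the correlations were 0.51, −0.47 and −0.41. The labels do not say that the numbers pair samples, so the block was run as an alternative only.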

Additional observations from a re-analysis of the deposited data

Results flagged for a closer look

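The genotype difference of AT4G33467 differed between organs. Under mock treatment the log2 fold change of aba2-3 over Col-O was −3.01 in roots and 0.04 in shoots, and the test of the difference, root minus shoot, gave −3.05 (SE 0.77, edgeR adjusted p 0.042). All 3 aba2-3 roots lay below all 3 Col-O roots, and the shoot groups overlapped. The test was chosen after the data were seen, and the alternatives put its adjusted p between 0.0081 and 0.17. AT4G33467 had 0 to 196 counts in these root libraries and 20 to 82 in these shoot libraries.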

How the results depend on the processing

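Of 820 values over 55 results under an alternative, 738 stayed on their side of the threshold or, for values with no test, within a limit. For counts the limit was a change of at most 1.5 times. For the others it was the root of the summed replicate variances of the groups compared, which is wider than the SD between replicates. The ABA response of HDA14, root minus shoot, thus counted as unmoved at 3.13, against 3.88 as reported, with root libraries above 5% of the shoot marker level left out. Of these 738, 12 had the other sign. The cause of the other changes was not tested. With root libraries above 5% of the shoot marker level left out, HDA14 had 3.58 for ABA in roots, 0.32 for root against shoot after ABA, −1.73 between genotypes in mock roots and −2.28 for the difference of that effect between organs, and AT4G33467 had 1.26 for root against shoot in Col-O IAA, each of the last 3 then called. With the compared groups alone AT4G33467 had −3.03 between genotypes in mock roots and −3.05 for its difference between organs, neither called, and HDA14 had −1.34 between genotypes in IAA roots, not called, and −1.69 for the difference between organs after IAA, called. With total counts HDA14 had −1.21 between genotypes in mock roots and −1.76 for the difference between organs, and AT4G33467 had 1.45 for root against shoot in Col-O IAA, all called. With DESeq2 HDA14 had −1.04 in mock roots, and −1.58 (mock) and −1.68 (IAA) for the differences between organs, all called. With no filter HDA14 had −1.28 between genotypes in IAA roots, not called.

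The replicate block gave −1.31 for HDA14 between genotypes in IAA roots (adjusted p 0.06), a call lost, and called 1 gene next to the pair in ABA roots. It changed no other call of the pair, it called 4 other histone deacetylases between genotypes in mock shoots, against 3 without it, and the other list counts stood. For IAA against mock in Col-O shoots, where all 3 same-number correlations exceeded 0.1, it called 508 genes, against 491 without it. Leaving out 1 library gave, for genotype, −1.50 to −0.77 for HDA14 in mock roots and −1.40 to −1.26 in IAA roots. For its difference between organs under mock it gave −3.71 to −2.40 for AT4G33467 and −2.05 to −1.28 for HDA14. For AT4G33467 root against shoot in Col-O IAA it gave 0.83 to 1.55. It called 0 to 3 genes next to the pair in ABA roots and 1 to 2 in ABA shoots, where the compared groups alone called 1. DESeq2 called 1 gene next to the pair and 1 other histone deacetylase in ABA roots, and total counts called 3 of the latter in ABA shoots. Between genotypes, leaving out 1 library called 0 genes next to the pair in mock roots, as did total counts, no filter and the roots over 5% left out. It called 0 to 1 other histone deacetylases in mock roots (DESeq2 1) and 0 to 4 in mock shoots (the compared groups alone 1). Of the listed ABA-induced genes it called 2 to 4 in mock roots, 2 to 5 in mock shoots (the compared groups alone 2) and 0 to 2 for the ABA difference between organs (DESeq2 2, the roots over 5% left out 0). With ABA 10 to 12 were called in roots and 12 in shoots under every alternative. The root correlation was 0.56 to 0.69 with 1 library left out, 0.47 with a pseudocount of 0.1 and −0.03 on deviations from group means. Of the 5 genes most like AT4G33467, 3 were shared with the ranking over 30 libraries.

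Counts of genes called ranged widely. For ABA they were 2164 to 4289 in roots (3480 as reported), 1209 to 2893 in shoots (2137) and 155 to 1003 for the difference (380). For IAA they were 1340 to 3685 in aba2-3 roots (2622), 224 to 1347 in aba2-3 shoots (425), 563 to 2022 in Col-O roots (1234) and 164 to 1073 in Col-O shoots (491). For genotype they were 537 to 2436 in mock roots (1592), 134 to 1199 in mock shoots (583), 148 to 851 in IAA roots (380) and 79 to 665 in IAA shoots (257). For the interactions they were 75 to 996 (341) and 9 to 180 (40) for genotype by organ in mock and IAA, and 56 to 931 (293) and 0 to 2 (1) for IAA by genotype in root and shoot. Total counts moved the median of all genes from −0.03 to −0.24 for ABA in roots and from −0.01 to −0.16 for genotype in mock roots, where 343 of 1804 calls were then higher, against 723 of 1592. Low counts of AT4G33467 without ABA limit what could be detected in its IAA and shoot comparisons.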
